A study of Homo sapiens with 12 samples.

Results

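The comparison described here set K562 cells labelled as a GPAT4 knockout and given palmitate against wild-type K562 cells given palmitate in the same experiment. It was chosen by genotype and treatment as labelled, and it rests on 2 of the 12 labelled libraries of the study, 1 per side. K562 is a human chronic myeloid leukemia line that expresses fetal and embryonic globin and other genes of red cell precursors. Each library was made from total RNA pooled from 3 replicates and enriched for messenger RNA. The knockout library came from GPAT4ko cells in 0.2 mM palmitate bound to serum albumin. Its wild-type partner had the same treatment, a further wild-type library received palmitate together with palmitoleate, and the last wild-type library was untreated. These 4 libraries form experiment 2 of 3. The labels give 20 h of treatment, and the legend inside the deposited table gives 16 h. How the knockout line was made, and whether it is 1 clone, are not given in the sources used here. No untreated knockout library was analysed here, so a difference that the knockout cells carried before palmitate and a difference in their response to palmitate cannot be told apart. Experiment 3 held RNF213kd and wild-type cells with and without palmitate, and experiment 1 held wild-type cells that were given palmitate, given palmitoleate or left untreated.

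GPAT4 is an enzyme of the endoplasmic reticulum (ER) that joins an acyl chain to glycerol 3-phosphate, the first step in the synthesis of phosphatidic acid, diacylglycerol, membrane phospholipids and stored triglyceride. Palmitate is a saturated fatty acid, and its entry into glycerolipids without enough unsaturated partners is a known source of ER stress. That stress is read by the sensors IRE1, PERK and ATF6 of the unfolded protein response, which raise chaperones such as HSPA5, and PERK also feeds the integrated stress response through ATF4. Palmitoleate has the same number of carbons as palmitate and carries a double bond.

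Promoters from RefSeq are shown for 5 genes of the stress and inflammatory lists below. Each has 250 bases before and 50 bases after the annotated start on GRCh38.p14. The first pair holds the ER stress response element, which was searched on both strands as CCAAT, then 9 bases of any kind, then CCACG, and through which ATF6 and NF-Y act on chaperone genes. The capitals mark the whole element, which CRELD2 holds on the opposite strand. HSPA5 lies at chr9:125241294-125241593, minus strand, and CRELD2 at chr22:49918384-49918683, plus strand.
HSPA5: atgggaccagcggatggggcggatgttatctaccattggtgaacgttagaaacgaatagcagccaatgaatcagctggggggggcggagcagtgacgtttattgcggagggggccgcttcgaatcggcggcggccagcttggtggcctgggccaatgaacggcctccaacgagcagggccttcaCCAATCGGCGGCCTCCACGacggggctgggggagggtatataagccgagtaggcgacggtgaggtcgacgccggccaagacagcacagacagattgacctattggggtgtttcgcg
CRELD2: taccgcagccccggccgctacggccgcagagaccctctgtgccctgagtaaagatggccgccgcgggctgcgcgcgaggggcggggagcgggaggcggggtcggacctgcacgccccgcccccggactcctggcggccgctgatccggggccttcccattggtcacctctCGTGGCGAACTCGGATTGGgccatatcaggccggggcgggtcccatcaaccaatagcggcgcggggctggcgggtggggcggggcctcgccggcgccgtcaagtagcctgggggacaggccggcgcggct
That element was found in 22 of 27305 promoters of the same length (0.0806%), and in 6 of the 20 matched promoters of the ER chaperone list. These were HSPA5, HSP90B1, CALR, CANX, CRELD2 and ERO1B.

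The next 3 promoters belong to chemokine genes, and their capitals mark GGNNTTTCC, a short form of the NF-kappaB site, searched on both strands. IL8, now CXCL8, lies at chr4:73740319-73740618, plus strand. CXCL2 lies at chr4:74099146-74099445, minus strand, and CXCL3 at chr4:74038640-74038939, minus strand.
IL8: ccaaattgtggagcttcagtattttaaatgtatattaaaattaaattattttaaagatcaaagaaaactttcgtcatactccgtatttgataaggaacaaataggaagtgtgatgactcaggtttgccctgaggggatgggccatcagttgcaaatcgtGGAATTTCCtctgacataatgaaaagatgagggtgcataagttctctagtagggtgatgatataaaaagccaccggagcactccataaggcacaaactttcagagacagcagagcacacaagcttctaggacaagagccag
CXCL2: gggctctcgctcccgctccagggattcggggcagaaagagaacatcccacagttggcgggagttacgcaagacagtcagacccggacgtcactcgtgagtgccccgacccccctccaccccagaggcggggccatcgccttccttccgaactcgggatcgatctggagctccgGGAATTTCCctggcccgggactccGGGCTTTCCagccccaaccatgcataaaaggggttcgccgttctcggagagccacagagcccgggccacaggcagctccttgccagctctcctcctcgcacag
CXCL3: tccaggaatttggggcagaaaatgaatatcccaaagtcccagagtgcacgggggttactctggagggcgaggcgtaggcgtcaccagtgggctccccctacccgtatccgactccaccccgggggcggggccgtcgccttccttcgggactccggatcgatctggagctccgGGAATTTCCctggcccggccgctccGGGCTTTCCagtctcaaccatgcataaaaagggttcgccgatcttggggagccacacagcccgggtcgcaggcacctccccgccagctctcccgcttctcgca
These letters stood in 1710 of the 27305 promoters (6.26%), and in 11 of the 14 matched promoters of the NF-kappaB and inflammatory list. A match is a description of the sequence, and binding was not measured.

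GPAT4, on chromosome 8 and listed as AGPAT6 in the files, stood at 8.77 FPKM (fragments per kilobase of transcript, scaled to the mapped fragments of the library) in the knockout with palmitate. The wild-type libraries of the same experiment held 20.0 FPKM with palmitate, 18.0 FPKM with both fatty acids and 21.0 FPKM untreated. The knockout library was thus the lowest of the 4, but it retained GPAT4 messenger RNA. The log2 ratio of FPKM + 1 was -1.10 (95% limma interval -1.97 to -0.24, limma adjusted p = 0.187), and the authors' deposited table gives p = 0.0416 with q = 0.9996. GPAT4 thus did not pass either test, and the knockout is called so by its label. Libraries of the other experiments held 11.8 to 14.1 FPKM. Which exon was disrupted, and so whether the remaining transcript is functional, is not given in the sources used here.

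The labelled cell type was checked against fixed markers. The 10 markers of K562 summed to 7293 FPKM in the knockout with palmitate and 5089 FPKM in wild type with palmitate. They summed to 13599 FPKM with both fatty acids and 17904 FPKM untreated, of which HBE1 alone held 9192 FPKM. Of the 10 markers, 9 reached 1 FPKM in any of these libraries. Epithelial markers, of which KRT18 was the most abundant, summed to 682 FPKM in the knockout and 1395 FPKM in wild type with palmitate, against 414 and 478 FPKM in the other wild-type libraries. KRT5 and KRT14 were at 0 in all 4. Markers of T cells summed to 12.1 FPKM in the knockout and 23.8 FPKM in wild type with palmitate, and those of monocytes, nearly all LYZ, to 22.3 and 20.1 FPKM. Markers of B cells summed to 1.31 FPKM in the knockout and 1.93 FPKM in wild type with palmitate. Fibroblast and endothelial markers stayed at or below 1.53 FPKM in sum in each library. The part of other cells in the results below was not tested. The 4 libraries of the experiment summed to 653590 to 734619 FPKM and listed 10703 to 11108 genes at 1 FPKM or more, so no library stood apart in scale, and read counts are unknown.

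Over the libraries used, 10944 genes averaged 1 FPKM or more. Of these, 697 were at least 2-fold higher in the knockout than in wild type under palmitate (6.37%) and 917 were at least 2-fold lower (8.38%), on the log2(FPKM + 1) scale. A ratio above 0 was found for 5743 of the 10944 genes and a ratio below 0 for 5170. The shares over all tested genes in this paragraph are the background for the counts by gene list below. With 1 library per side there was no replicate check. A limma test that borrowed its spread from the wild-type palmitate ratios of the 3 experiments called 86 genes higher (0.786%) and 153 lower (1.4%) at an adjusted p under 0.05. Such a call concerns these 2 libraries, and it assumes that a lone ratio varies as the wild-type ratio did between experiments. The number of calls depended on that spread: it was 1 when the wild-type libraries were pooled without pairing by experiment, 2 with no filter on low values, 22 with small RNA genes kept, 31 with a GC trend removed, and 155 to 613 when 1 wild-type experiment was left out of the spread. The FPKM and ratios below therefore carry the description, and "rose" and "fell" are used of called genes. Of the calls, 6 rises and 22 falls had passed the filter of 1 FPKM only through the compared libraries, where such genes had to differ, so their calls lend no support. Among genes named below these are NGFRAP1, MAGEB16, COL14A1, ANKRD33 and CD9. With the filter set on the libraries not compared, a choice made after seeing the data, 102 genes rose and 189 fell among 10812.

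The falls were led by genes that palmitate had raised in wild type. In such bulk libraries fewer cells of a kind and less RNA per cell cannot be told apart. IL8, which encodes the chemokine interleukin 8, stood at 12.9 FPKM in the knockout with palmitate and at 695 FPKM in wild type with palmitate, against 0.581 FPKM with both fatty acids and 0.0843 FPKM untreated. Its level in the knockout lay far below wild type under palmitate and still above both other wild-type libraries. IL8 fell by 5.65 on the log2 scale (95% limma interval -7.39 to -3.91, limma adjusted p = 0.00544).

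PAEP, which encodes the secreted lipocalin glycodelin, had the largest fall. It stood at 1.32 FPKM in the knockout and 199 FPKM in wild type with palmitate, against 0.584 FPKM with both fatty acids and 1.00 FPKM untreated, so that the knockout was close to the untreated level. It fell by 6.43 on the log2 scale (limma adjusted p = 0.0212). Wild type with palmitate of experiments 1 and 3 held at most 12.7 FPKM of PAEP. The size of this fall thus rests on the high wild-type library of experiment 2. OLAH, a thioesterase that releases medium-chain fatty acids from fatty acid synthase, had 1.15 FPKM in the knockout and 82.8 FPKM in wild type with palmitate, against 0.319 FPKM with both fatty acids and 0.0323 FPKM untreated, and fell by 5.29 (limma adjusted p = 0.00981).

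G0S2, an inhibitor of the triglyceride lipase ATGL, stood at 2.04 FPKM in the knockout and 66.0 FPKM in wild type with palmitate, against 18.4 FPKM with both fatty acids and 2.37 FPKM untreated. Both fatty acids together had thus left it above the knockout level, and it fell by 4.46 relative to wild type with palmitate (limma adjusted p = 0.00306). IFI16, a sensor of nuclear and cytosolic DNA, had 4.34 FPKM in the knockout and 91.5 FPKM in wild type with palmitate, against 1.33 and 1.57 FPKM with both fatty acids and untreated, and fell by 4.11 (limma adjusted p = 0.00457). The other genes among the 12 largest falls were C19orf59, NDRG1, CD69, ANKRD33, COL6A2, COL6A3 and C12orf39. Their ratios lay between -4.96 and -3.94. All 12 genes were lower in wild type with palmitate of experiments 1 and 3 than of experiment 2. There OLAH reached at most 20.9 FPKM, NDRG1 5.62 FPKM and COL6A2 5.87 FPKM. CD69 differed less, at 72.6 and 60.4 FPKM against 96.8 FPKM in experiment 2. The order and size of these falls thus depend on 1 wild-type library, and levels are set here across separately normalised tables.

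The largest rises had several patterns. IGFBP4, which binds insulin-like growth factors, had 73.6 FPKM in the knockout and 4.33 FPKM in wild type with palmitate, against 36.7 FPKM with both fatty acids and 7.48 FPKM untreated. It was thus high in the knockout and, less so, with both fatty acids, and it rose by 3.81 on the log2 scale (95% limma interval 2.89 to 4.72, limma adjusted p = 0.00188).

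KLF1, a transcription factor that drives globin and other red cell genes, stood at 48.4 FPKM in the knockout and 3.54 FPKM in wild type with palmitate, against 70.1 FPKM with both fatty acids and 89.8 FPKM untreated. Here wild type with palmitate was the low library, and the knockout was nearer to the other wild-type libraries. KLF1 rose by 3.44 (limma adjusted p = 0.0217). NFE2, an erythroid and megakaryocytic factor, had 82.4 FPKM in the knockout and 6.04 FPKM in wild type with palmitate, against 109 and 130 FPKM with both fatty acids and untreated, and rose by 3.57 (limma adjusted p = 0.0198).

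**Figure D1:**
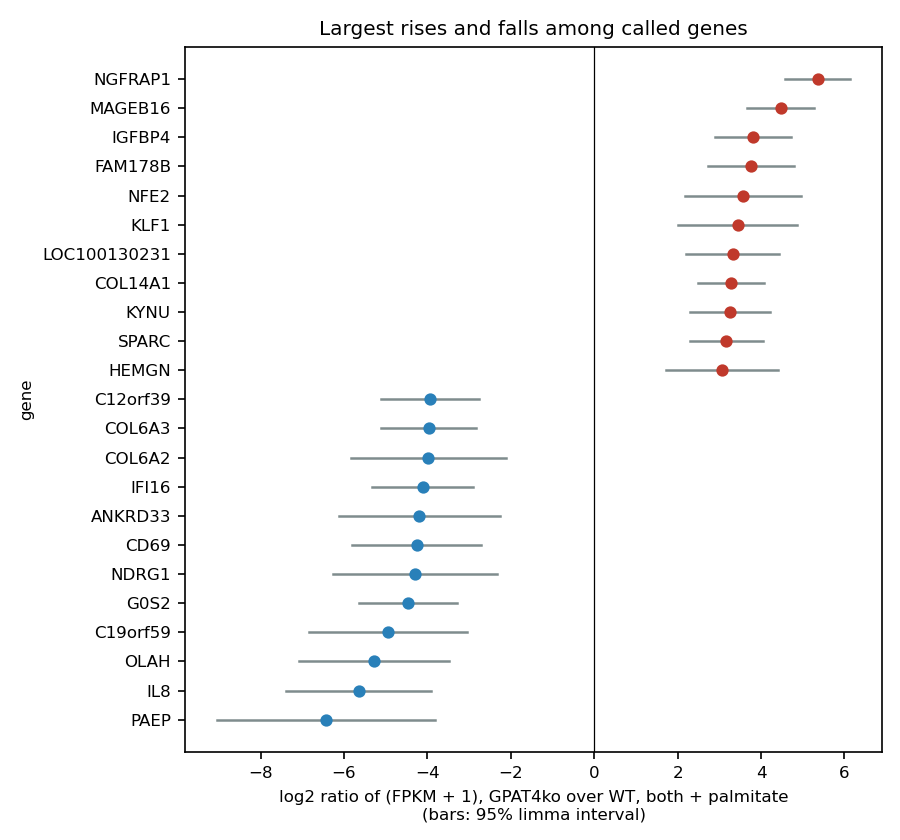
Log2 ratio of FPKM + 1, knockout over wild type, both with palmitate (x axis), for called genes that reach 5 FPKM in 1 of the libraries, 11 of the 12 highest and the 12 lowest ratios (y axis); points are the 2-library ratio and bars its 95% limma interval. The ratios run from 5.36 for NGFRAP1 to -6.43 for PAEP, and no interval could reach 0, since only called genes are shown. NGFRAP1, MAGEB16, COL14A1 and ANKRD33 passed the filter only through the compared libraries.

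Genes that respond to palmitate were then taken from experiments 1 and 3, which share no library with the ratio of knockout to wild type. The limma calls do use the wild-type ratios of these experiments for their spread. Counts of calls in the lists are thus not independent of how the lists were chosen. In both of those experiments 373 genes were at least 2-fold higher with palmitate in wild type. In the knockout against wild type, 361 of the 373 had a ratio below 0, 246 were at least 2-fold lower, 85 fell and 0 rose, with a median log2 ratio of -1.27. Over the 10488 tested genes outside this list and the one below, some of which responded in 1 experiment, the median ratio was 0.06, with 61 rises and 68 falls. The 83 genes that palmitate had lowered at least 2-fold in both experiments all had a ratio above 0. Of these 83 genes, 71 were at least 2-fold higher in the knockout, 25 rose and 0 fell, and the median ratio was 1.67. The lowered list depended on the experiment that chose it: its median was 0.50 with experiment 1 alone and 1.34 with experiment 3 alone, and that of the raised list was -0.83 and -1.27.

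Relative to untreated wild type, the palmitate-raised genes had a median log2 ratio of 0.99 in the knockout with palmitate and of 2.30 in wild type with palmitate of the same experiment. In experiments 1 and 3 the wild-type medians, which chose the list, were 1.64 and 1.62. The palmitate-lowered genes had medians of -0.58 in the knockout and -2.26 in wild type of the same experiment, against -1.61 and -1.22 in experiments 1 and 3. Both ratios of experiment 2 share the untreated wild-type library, and that of the knockout differs from it in genotype as well as treatment.

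**Figure D2:**
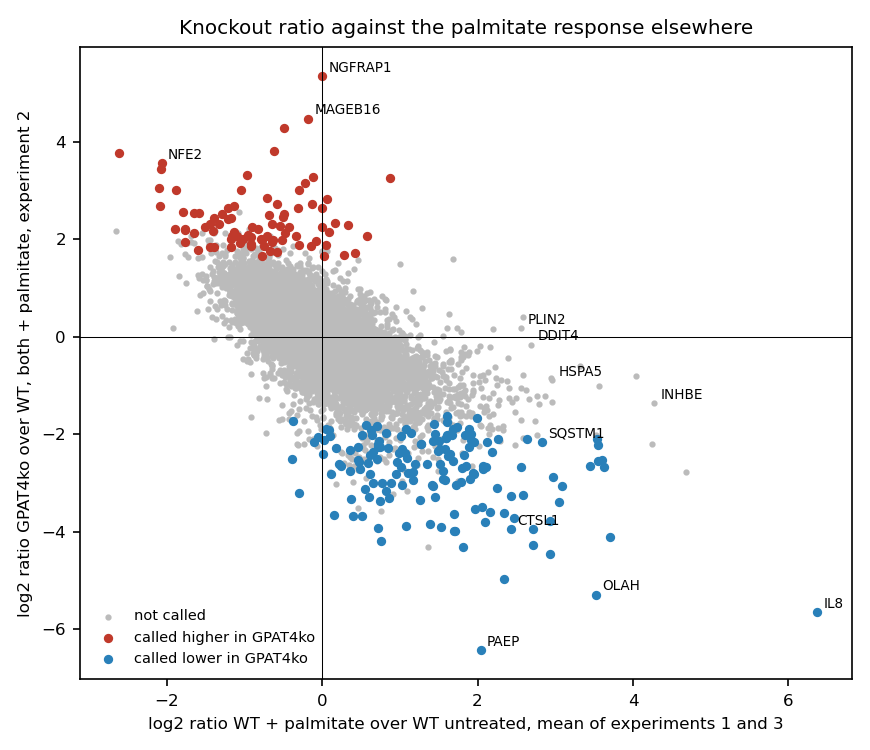
Each point is 1 of 10944 tested genes, with the mean log2 palmitate response of wild type in experiments 1 and 3 (x axis) and the log2 ratio of knockout over wild type with palmitate in experiment 2 (y axis); colours mark limma calls. Genes raised by palmitate lie mostly below 0 and genes lowered by it mostly above, while NGFRAP1 and MAGEB16 stand high with a palmitate response near 0.

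Across the 10944 genes the knockout ratio went with the mean palmitate response of experiments 1 and 3 at a Pearson r of -0.68 and a Spearman rho of -0.67. The Pearson r was -0.48 with experiment 1 alone and -0.75 with experiment 3 alone. This describes genes of the same few libraries, which are not replicates. The wild-type response varied with GC content, at a Spearman rho of -0.63 in experiment 1 against -0.02 and 0.15 in experiments 2 and 3. The knockout ratio did so at -0.01. With the GC trend removed, its correlation with the mean palmitate response moved by less than the standard deviation of the values from experiments 1 and 3 alone. That margin is wide, and the part of GC content in these values was not tested further.

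**Figure D3:**
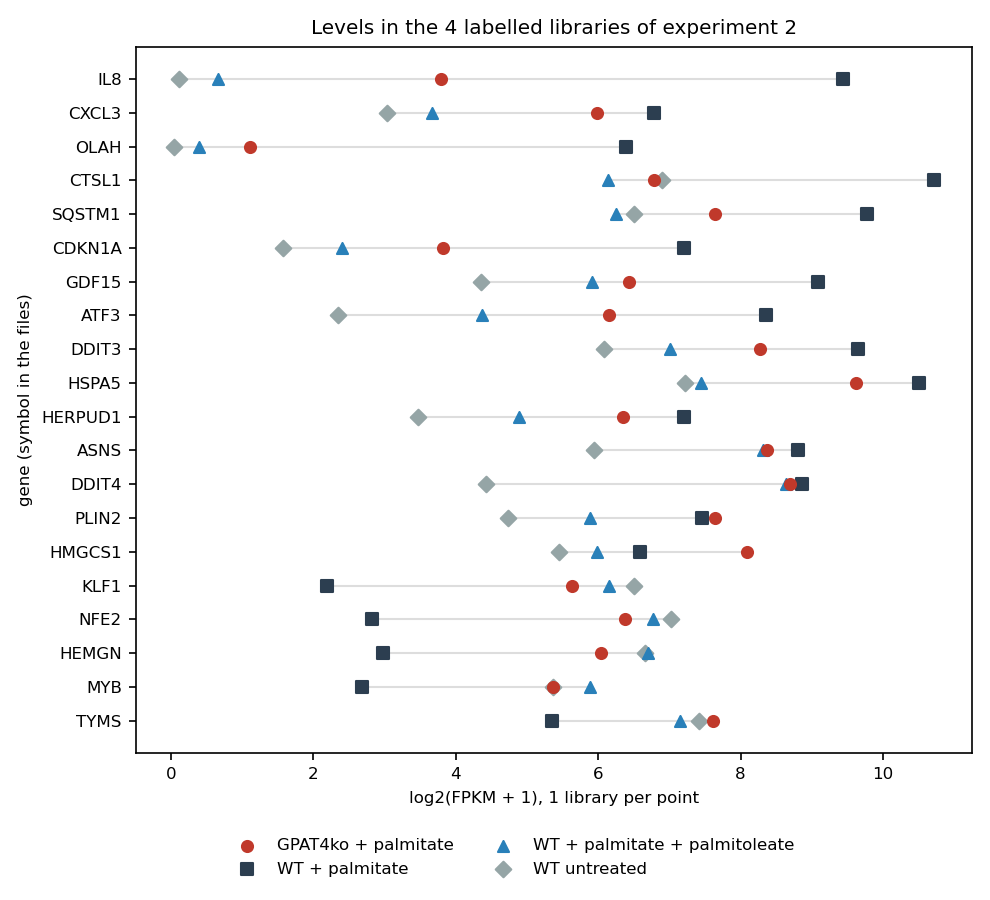
Levels of 20 genes (y axis) as log2(FPKM + 1) (x axis) in the 4 labelled libraries of experiment 2, 1 point per library. IL8, CTSL1 and SQSTM1 are far lower in the knockout than in wild type with palmitate, DDIT4 and PLIN2 lie close together in these 2 libraries, and KLF1, NFE2, HEMGN and MYB are low only in wild type with palmitate. The knockout and untreated points of MYB coincide.

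Of 11 tested sensors and effectors of ER stress, 10 had a ratio below 0, with a median of -0.52, but neither these nor any of the 22 tested ER chaperones passed the test. The 22 chaperone and folding genes had a median ratio of -0.48, with 21 below 0. Over all 10944 tested genes the median was 0.04 and 5170 were below 0. HSPA5, the main ER chaperone, stood at 784 FPKM in the knockout and 1451 FPKM in wild type with palmitate, against 173 FPKM with both fatty acids and 148 FPKM untreated. The knockout lay between the palmitate library of wild type and the other libraries. Its ratio to wild type with palmitate was -0.89 (95% limma interval -1.71 to -0.07, limma adjusted p = 0.271).

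Against untreated wild type HSPA5 rose by 2.40 in the knockout (limma adjusted p = 0.0153), and against both fatty acids by 2.17 (limma adjusted p = 0.0427). CRELD2, a folding factor whose promoter is shown above, had 25.1 FPKM in the knockout and 27.0 FPKM in wild type with palmitate, against 7.91 FPKM with both fatty acids and 7.63 FPKM untreated. HSP90B1, the ER form of HSP90, had 844 and 1044 FPKM in the knockout and wild type with palmitate, against 283 and 271 FPKM. In CRELD2 and HSP90B1 the knockout was thus nearer to wild type with palmitate than to the other wild-type libraries. This did not hold for the whole list: ERO1LB, an oxidase that renews protein disulfide isomerase, had 2.67 FPKM in the knockout and 6.63 FPKM in wild type with palmitate, against 1.31 and 1.16 FPKM. XBP1, the transcription factor spliced by IRE1, had 80.9 FPKM in the knockout and 122 FPKM in wild type with palmitate, against 68.4 and 36.1 FPKM, and its spliced form was not measured.

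Of the 32 tested genes of ER-associated degradation and secretion, 30 had a ratio below 0, with a median of -0.55, and 1 fell. This was EDEM1, which delivers misfolded glycoproteins for degradation, at 12.5 FPKM in the knockout and 56.8 FPKM in wild type with palmitate, against 9.10 and 5.99 FPKM with both fatty acids and untreated (log2 ratio -2.09, limma adjusted p = 0.0321). HERPUD1, another component of that pathway, did not pass the test. It had 80.8 FPKM in the knockout and 147 FPKM in wild type with palmitate, against 28.5 and 10.1 FPKM.

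The integrated stress response list had 23 tested members, a median ratio of -0.79, 20 members below 0 and 2 falls. GDF15, a secreted stress cytokine, stood at 85.8 FPKM in the knockout and 543 FPKM in wild type with palmitate, against 59.2 FPKM with both fatty acids and 19.5 FPKM untreated, and fell by 2.65 (limma adjusted p = 0.0217). NUPR1, a stress-induced chromatin protein, had 3.21 and 29.8 FPKM in the knockout and wild type with palmitate, against 1.51 and 0.464 FPKM, and fell by 2.87 (limma adjusted p = 0.0215).

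Other members of this list had ratios near 0 with wide intervals. ASNS, asparagine synthetase and an ATF4 target, stood at 331 FPKM in the knockout and 447 FPKM in wild type with palmitate, against 318 FPKM with both fatty acids and 60.7 FPKM untreated (95% limma interval of the ratio -1.28 to 0.41). DDIT4, an inhibitor of mTORC1 signalling, had 415 FPKM in the knockout and 463 FPKM in wild type with palmitate, against 399 and 20.4 FPKM (interval -1.59 to 1.27). CHAC1, which degrades glutathione, had 12.7 and 8.82 FPKM, against 21.6 and 0.362 FPKM (interval -0.88 to 1.83). For all 3 genes the untreated library was the lowest by far.

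DDIT3, the transcription factor CHOP, was intermediate at 308 FPKM in the knockout and 800 FPKM in wild type with palmitate, against 128 and 66.8 FPKM, with a ratio of -1.37 (limma adjusted p = 0.139). ATF3, which ATF4 and other stress factors raise, had 70.3 and 326 FPKM, against 19.6 and 4.07 FPKM (ratio -2.20, limma adjusted p = 0.115). Relative to untreated wild type the list median was 1.56 in the knockout and 2.86 in wild type with palmitate. Relative to wild type with both fatty acids the knockout median was 0.14.

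**Figure D4:**
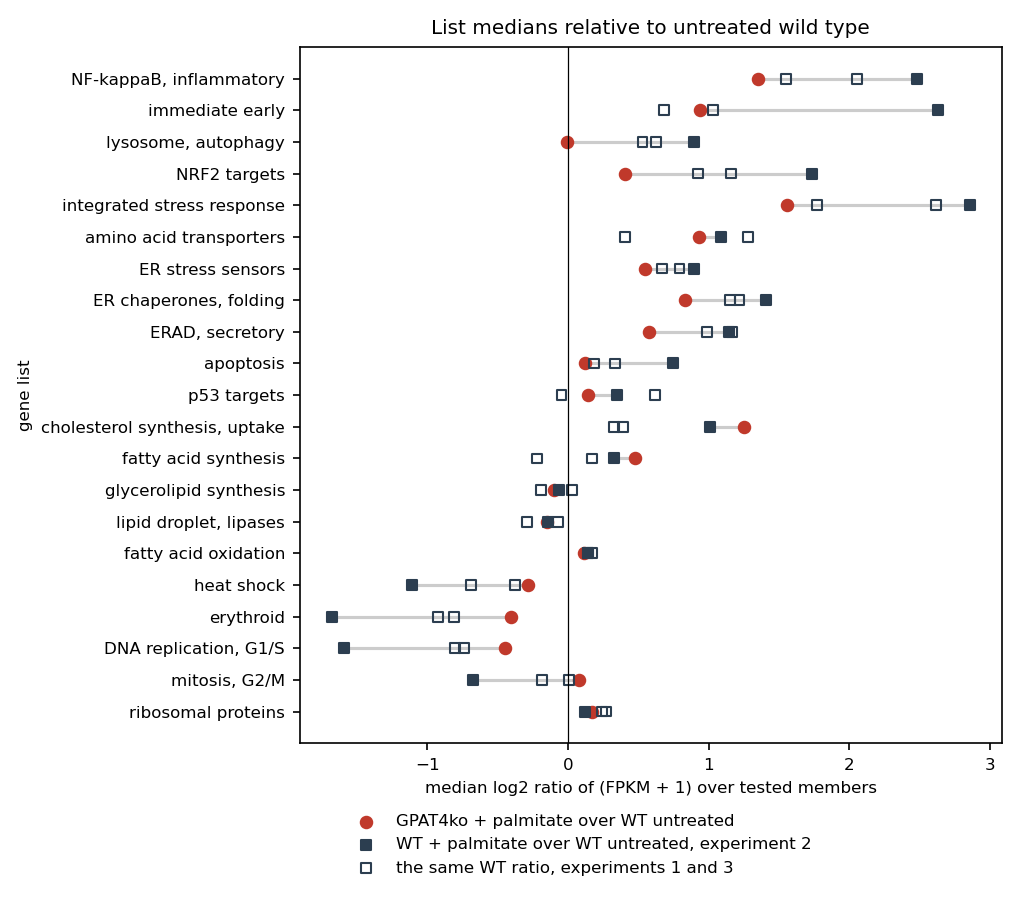
Median log2 ratio of FPKM + 1 to untreated wild type (x axis) over the tested members of 21 gene lists (y axis), for the knockout with palmitate and wild type with palmitate in experiment 2, which share the untreated library, and for wild type in experiments 1 and 3 (open squares). The knockout median of the integrated stress response is 1.56, against 2.86 in wild type of experiment 2, while the cholesterol list is at 1.25 in the knockout and 1.01 in wild type.

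The NF-kappaB and inflammatory list had 11 tested members, all with a ratio below 0, a median of -1.68 and 2 falls. Beside IL8, RELB fell, which encodes a subunit of NF-kappaB. It had 1.79 FPKM in the knockout and 17.2 FPKM in wild type with palmitate, against 0.327 and 0.0915 FPKM with both fatty acids and untreated (log2 ratio -2.70, limma adjusted p = 0.0488).

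The 3 chemokine genes whose promoters are shown differed in size of ratio. CXCL3 stood at 62.1 FPKM in the knockout and 109 FPKM in wild type with palmitate, against 11.7 FPKM with both fatty acids and 7.22 FPKM untreated. CXCL2 had 19.0 and 29.2 FPKM in the knockout and wild type with palmitate, against 3.85 and 4.16 FPKM. Their ratios of -0.80 and -0.60 did not pass the test, beside -5.65 for IL8. Against untreated wild type CXCL3 rose by 2.94 in the knockout (limma adjusted p = 0.00784). NFKBIA, the inhibitor that NF-kappaB induces, had 17.3 and 84.3 FPKM in the knockout and wild type with palmitate, against 17.0 and 17.2 FPKM (ratio -2.23, limma adjusted p = 0.0578).

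Among 15 tested immediate early genes, 14 had a ratio below 0, the median was -1.25 and 2 fell. DUSP5, a phosphatase that inactivates ERK, had 2.27 FPKM in the knockout and 47.6 FPKM in wild type with palmitate, against 2.37 and 1.09 FPKM with both fatty acids and untreated (log2 ratio -3.89, limma adjusted p = 0.0365). KLF6, a zinc finger transcription factor, had 33.7 and 202 FPKM, against 5.68 and 5.36 FPKM (log2 ratio -2.55, limma adjusted p = 0.0287).

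The lysosome and autophagy list had 25 tested members, 22 with a ratio below 0, a median of -0.90 and 3 falls. CTSL1, the lysosomal protease cathepsin L, stood at 109 FPKM in the knockout and 1684 FPKM in wild type with palmitate, against 69.6 FPKM with both fatty acids and 119 FPKM untreated. The knockout level was close to the untreated one, and CTSL1 fell by 3.94 (limma adjusted p = 0.0047). Wild type with palmitate of experiments 1 and 3 held only 228 and 430 FPKM of CTSL1. SQSTM1, the autophagy receptor p62, had 198 FPKM in the knockout and 880 FPKM in wild type with palmitate, against 75.1 and 90.1 FPKM, and fell by 2.15 (limma adjusted p = 0.0203). OPTN, another autophagy receptor, had 4.60 and 34.8 FPKM, against 3.64 and 2.33 FPKM, and fell by 2.68 (limma adjusted p = 0.0217).

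The NRF2 target list, which SQSTM1 can feed by holding the NRF2 repressor KEAP1, had a median ratio of -1.01 over 17 tested members, 15 of them below 0. GCLC, the catalytic subunit of the enzyme that begins glutathione synthesis, was its 1 fall, at 12.5 FPKM in the knockout and 49.3 FPKM in wild type with palmitate, against 7.92 and 9.91 FPKM (log2 ratio -1.89, limma adjusted p = 0.0377).

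Of 12 tested apoptosis genes, 10 had a ratio below 0, 1 fell and 1 rose, with a median of -0.77. TNFRSF10B, the death receptor DR5 and a CHOP target, stood at 23.2 FPKM in the knockout and 153 FPKM in wild type with palmitate, against 22.7 FPKM with both fatty acids and 10.2 FPKM untreated, and fell by 2.66 (limma adjusted p = 0.0205). BCL2L11, the pro-apoptotic protein BIM, went the other way, with 11.04 FPKM in the knockout and 2.23 FPKM in wild type with palmitate, against 7.48 and 8.95 FPKM (log2 ratio 1.90, limma adjusted p = 0.042). Only wild type with palmitate was low in BCL2L11. Among p53 targets 2 of 11 fell. These were CDKN1A, the cell cycle inhibitor p21, with 13.1 and 146 FPKM in the knockout and wild type with palmitate, against 4.26 and 1.99 FPKM (ratio -3.38, limma adjusted p = 0.0426), and the antiproliferative gene BTG2 (ratio -2.60, limma adjusted p = 0.0217). K562 cells lack functional p53.

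**Figure D5:**
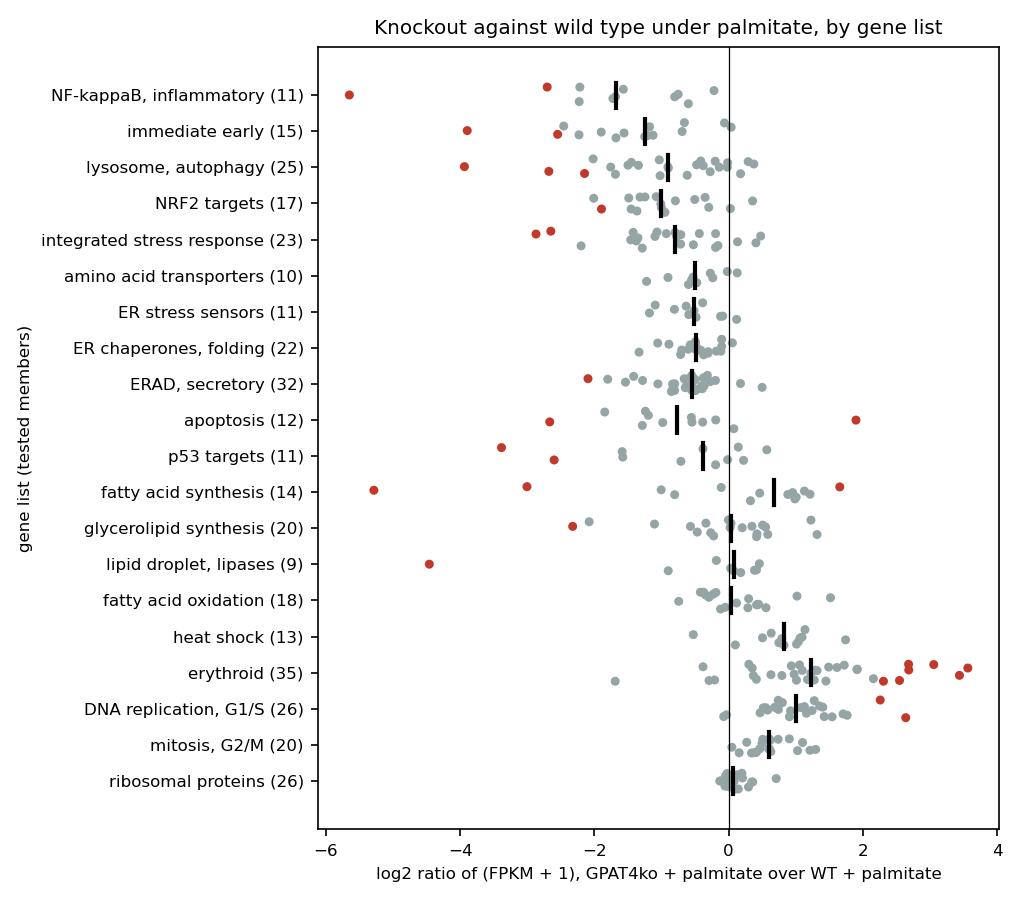
Log2 ratio of knockout over wild type with palmitate (x axis) for the tested members of 20 gene lists (y axis, number of tested members in brackets); each point is a gene, red points are limma calls and black bars are list medians. The lists of NF-kappaB, immediate early and NRF2 genes have medians of -1.68, -1.25 and -1.01, and the erythroid and DNA replication lists have medians of 1.23 and 1.00.

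Erythroid genes formed the list with the most rises. Of 35 tested members, 31 had a ratio above 0, 23 were at least 2-fold higher, 7 rose and 0 fell, and the median was 1.23. Over all tested genes, 5743 of 10944 were above 0, 6.37% were at least 2-fold higher and 0.786% rose. The 7 erythroid rises were KLF1, NFE2, HEMGN, MYB, PKLR, AHSP and HBZ. MYB, a factor of early blood progenitors, stood at 40.2 FPKM in the knockout and 5.41 FPKM in wild type with palmitate, against 58.3 FPKM with both fatty acids and 40.2 FPKM untreated (log2 ratio 2.69, limma adjusted p = 0.0275). HBZ, embryonic zeta globin, had 943 and 190 FPKM in the knockout and wild type with palmitate, against 954 and 1446 FPKM, and rose by 2.31. In every case wild type with palmitate was the low library.

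Globin genes were not uniform. HBG1 and HBG2, the near-identical fetal gamma globins whose reads the authors' counting may have split, had 1610 and 3376 FPKM in the knockout and 525 and 1234 FPKM in wild type with palmitate, against 1887 and 3679 FPKM with both fatty acids and 2131 and 4714 FPKM untreated. HBE1, embryonic epsilon globin, went the other way, at 912 FPKM in the knockout and 2944 FPKM in wild type with palmitate, against 6585 and 9192 FPKM. The knockout was its lowest library, with a ratio to wild type with palmitate of -1.69 (limma adjusted p = 0.0687). Against untreated wild type HBE1 fell by 3.33 (limma adjusted p = 0.00564), but libraries of the other experiments held 488 to 3716 FPKM.

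Genes of proliferation also lay above wild type with palmitate. Of 26 tested DNA replication genes, 24 had a ratio above 0, 13 were at least 2-fold higher and 2 rose, with a median of 1.00. TYMS, thymidylate synthase, stood at 196 FPKM in the knockout and 40.02 FPKM in wild type with palmitate, against 141 FPKM with both fatty acids and 169 FPKM untreated (log2 ratio 2.26, limma adjusted p = 0.0304). UNG, which removes uracil from DNA, had 38.8 and 5.38 FPKM, against 36.3 and 51.8 FPKM (log2 ratio 2.64, limma adjusted p = 0.0416). All 20 mitotic genes had a ratio above 0 with a median of 0.60, and 12 of 13 heat shock genes were above 0 with a median of 0.83, none past the test. Nuclear genes of oxidative phosphorylation had a median of 0.47, with 25 of 26 above 0. Ribosomal protein and proteasome genes had medians of 0.07 and 0.06.

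Genes of the pathway in which GPAT4 acts went both ways. Among 20 tested genes of glycerolipid synthesis, 11 had a ratio above 0 and 9 below, with a median of 0.03. The knockout was at least 2-fold higher for 2 of them and at least 2-fold lower for 3, GPAT4 among these, and 1 fell. The gene that fell was AGPAT4, an acyltransferase of the next step, at 0.702 FPKM in the knockout and 7.51 FPKM in wild type with palmitate, against 4.16 and 4.63 FPKM with both fatty acids and untreated (log2 ratio -2.32, limma adjusted p = 0.0147). It was thus low in the knockout relative to all 3 wild-type libraries. PCYT2, an enzyme of phosphatidylethanolamine synthesis, had 34.4 FPKM in the knockout and 13.2 FPKM in wild type with palmitate, against 36.5 and 34.9 FPKM (ratio 1.32). CHPT1, which makes phosphatidylcholine, had 81.8 and 34.3 FPKM, against 80.0 and 87.8 FPKM (ratio 1.23). In both genes wild type with palmitate was the low library, and neither ratio passed the test.

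Of the other glycerol 3-phosphate acyltransferases, GPAT3, listed as AGPAT9, stood at 10.1 FPKM in the knockout and 45.6 FPKM in wild type with palmitate, against 5.08 FPKM with both fatty acids and 1.60 FPKM untreated. Its ratio was -2.08 (limma adjusted p = 0.0891). The mitochondrial enzyme GPAM had 3.18 and 1.94 FPKM in the knockout and wild type with palmitate, against 3.58 and 3.82 FPKM, and GPAT2 stayed at or below 0.0677 FPKM in all 4 libraries. No GPAT gene was therefore higher in the knockout than in each wild-type library.

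Among lipid droplet genes, PLIN2, the coat protein of droplets, had 199 FPKM in the knockout and 175 FPKM in wild type with palmitate, against 58.1 FPKM with both fatty acids and 25.7 FPKM untreated. Its ratio to wild type with palmitate was 0.18 (95% limma interval -0.76 to 1.12), and against untreated wild type it rose by 2.90 (limma adjusted p = 0.0108). DGAT1, which makes triglyceride from diacylglycerol, had 12.1 and 7.73 FPKM in the knockout and wild type with palmitate, against 13.1 and 13.9 FPKM.

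Of the genes of cholesterol synthesis and uptake, all 24 were tested. Of these, 19 had a ratio above 0 relative to wild type with palmitate, and the median was 0.20. Relative to untreated wild type their median was 1.25 in the knockout and 1.01 in wild type with palmitate, and HMGCS1 rose in the knockout (log2 ratio 2.64, limma adjusted p = 0.0245). HMGCS1, which makes the precursor of mevalonate, stood at 271 FPKM in the knockout and 95.4 FPKM in wild type with palmitate, against 62.6 FPKM with both fatty acids and 42.7 FPKM untreated. INSIG1, which holds the sterol-sensing complex in the ER, had 162 and 90.6 FPKM, against 87.7 and 44.1 FPKM.

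Genes of fatty acid synthesis and desaturation had a median ratio of 0.67 over 14 tested members, with 1 rise and 2 falls. FADS1, the delta-5 desaturase, had 359 FPKM in the knockout and 113 FPKM in wild type with palmitate, against 137 and 95.5 FPKM with both fatty acids and untreated, and rose by 1.66 (limma adjusted p = 0.0437). SCD, the desaturase that makes palmitoleate from palmitate, had 260 and 131 FPKM, against 150 and 97.6 FPKM (ratio 0.99, limma adjusted p = 0.215). The falls were OLAH and ELOVL7, an elongase of saturated chains, at 0.260 and 9.11 FPKM, against 7.42 and 2.66 FPKM. Fatty acid oxidation genes had a median of 0.03 and 0 calls, with 9 of 18 above 0. Phospholipid remodelling and sphingolipid genes had medians of -0.01 and -0.18, also with 0 calls, and fatty acid uptake genes 0.18.

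Among the remaining lists, 9 of 10 amino acid transporters had a ratio below 0, with a median of -0.50 and 0 calls, and tRNA synthetases had a median of 0.02. Glycolysis genes had a median of -0.01 over 22 members, of which ARRDC4, an arrestin-like regulator, fell (ratio -1.85, limma adjusted p = 0.0431). Of 7 tested megakaryocyte genes 1 rose, the platelet receptor subunit GP1BB, and 2 fell, the integrin ITGB3 and the tetraspanin CD9. ITGB3 had 1.09 FPKM in the knockout and 24.9 FPKM in wild type with palmitate, against 1.29 and 1.13 FPKM with both fatty acids and untreated (ratio -3.63, limma adjusted p = 0.0118). GP1BB had 80.3 and 15.5 FPKM, against 69.8 and 66.6 FPKM (ratio 2.31, limma adjusted p = 0.042), so that in both genes wild type with palmitate was the library that stood apart.

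The knockout with palmitate was then set against untreated wild type, where both genotype and treatment differ. In this comparison 38 of 10944 genes rose (0.347%) and 12 fell (0.11%), and 366 (3.34%) and 125 (1.14%) were at least 2-fold higher and lower. Of the 373 palmitate-raised genes 18 rose and 182 were at least 2-fold higher. Against wild type with both fatty acids, 18 of 10938 genes rose (0.165%) and 11 fell (0.101%), and 186 (1.7%) and 142 (1.3%) were at least 2-fold higher and lower. In each of these comparisons 6 of the rises had passed the filter only through the compared libraries, and with the filter set on the others 31 and 6 genes rose. The 3 comparisons share the knockout library, and their calls were not tested against each other.

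The RNF213 knockdown of experiment 3 was the most alike comparison without a shared library. With palmitate, RNF213kd cells against wild type gave 0 rises and 0 falls among 10912 genes by limma (66 at an unadjusted p under 0.05), and 27 (0.247%) and 59 (0.541%) genes were at least 2-fold higher and lower. The ratios had a standard deviation over genes of 0.78 for the GPAT4 knockout and 0.30 for the RNF213 knockdown. The test of the difference between the ratios called 2 of 10909 genes higher in the knockout comparison (0.0183%), NGFRAP1 and MAGEB16, and 0 lower, with 373 at an unadjusted p under 0.05. Both genes had entered this test only through the knockout library, so these calls lend no support, and limma called 0 of 10781 genes (357 at an unadjusted p under 0.05) with the filter set on the libraries not compared. The ratios differed at least 2-fold upward for 2.95% of the genes and downward for 5.63%. Medians of the GPAT4 knockout and the RNF213 knockdown were 1.23 and 0.55 for erythroid genes, 1.00 and 0.44 for DNA replication genes, -0.79 and -0.34 for the integrated stress response and -1.68 and -0.26 for NF-kappaB genes. For no list was the difference tested, and for single genes of these lists it did not pass the test.

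Some called genes had a palmitate response under 2-fold in wild type on the log2(FPKM + 1) scale. That scale shrinks changes of low genes, so such a gene may still have responded. KYNU, described below, went from 6.26 to 12.6 FPKM with palmitate in wild type of experiment 3. A gene near 0 FPKM in wild type, such as NGFRAP1, could hardly show a response. A response under 2-fold in each of the 3 experiments was found for 67.3% of all tested genes, and for 28 of the 86 rises and 20 of the 153 falls. The response of experiment 2 shares its wild-type palmitate library with the knockout ratio, so the gap between these shares is partly built in. NGFRAP1, an X-linked gene now named BEX3, stood at 39.9 FPKM in the knockout and was listed at 0 in all 3 wild-type libraries of experiment 2. MAGEB16, an X-linked cancer-testis gene, had 21.7 FPKM in the knockout and 0.022, 0.010 and 0.0392 FPKM in wild type with palmitate, with both fatty acids and untreated. C5orf58 was listed at 0 in the knockout and had 11.7, 27.0 and 15.2 FPKM in those wild-type libraries. ALDH1A1, a retinaldehyde dehydrogenase, had 0.466 FPKM in the knockout against 17.8, 8.86 and 10.97 FPKM. These 48 genes are 0.439% of all tested genes, and 7 of them, all but 1 higher in the knockout, had passed the filter only through the compared libraries. On the X chromosome lie 8 of the 48 and 378 of the 10944 tested genes, so that 2.12% of its tested genes were among them. No test of this share was made.

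For many of these genes wild type itself differed between experiments. In 16 of the 28 rises all 5 wild-type libraries of experiments 1 and 3 stood above all 3 wild-type libraries of experiment 2, as they did for 4.9% of tested genes. These 28 genes were chosen partly for being low in 1 wild-type library of experiment 2, and levels are set here across tables that the authors normalised separately. KYNU, which breaks down kynurenine, had 9.51 FPKM in the knockout and 0.0747 to 0.102 FPKM in wild type of experiment 2, but 5.36 to 12.6 FPKM in wild type of experiments 1 and 3. SPARC, a secreted matrix protein, had 10.7 FPKM in the knockout and 0.0745 to 0.309 FPKM in wild type of experiment 2, against 4.08 to 10.9 FPKM elsewhere. ARHGAP15, a GTPase-activating protein for Rac, had 8.10 FPKM in the knockout and 0.173 to 0.274 FPKM, against 5.75 to 13.2 FPKM. For 9 of the 28 genes the knockout level lay within the range of wild type in experiments 1 and 3. It did so for 6003 of all 10944 tested genes, and for 2 of the 20 falls with a response under 2-fold. In 6 of these 20 falls all wild-type libraries of experiments 1 and 3 stood below those of experiment 2, and in 2 above. Over all tested genes these counts were 1644 and 532. COL14A1 and NGFRAP1 did not follow the pattern of KYNU, SPARC and ARHGAP15, with at most 0.986 and 0.0448 FPKM in any wild-type library. Where wild-type lines of the experiments differ, a difference of the knockout from its own wild type and a difference of that wild type from the others cannot be told apart.

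The authors' deposited table, which compares the same 2 libraries with Cuffdiff, gives a q-value under 0.05 for 35 of the 10944 genes, 6 higher and 29 lower in the knockout. Of these, 25 were also limma calls, IL8 and IFI16 among them. The other limma calls, such as PAEP, OLAH, G0S2, KLF1 and NFE2, did not reach that q-value. The smallest deposited q-value was 0.0175, and 811 genes had a deposited p-value under 0.05.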

How the data were processed

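Expression was deposited as FPKM per gene, which the authors made with TopHat2 and Cuffdiff on hg19, per the submitters' processing notes, with versions not stated. Cuffdiff scaled the libraries of 1 table together, and each of the 3 experiments has its own table. The p-values and q-values in the authors' deposited table compare 2 single libraries and are quoted only as such. Each library pooled 3 replicates. Of 12 labelled libraries 11 were used, and the labelled untreated GPAT4ko library was not analysed here. The tables also hold 2 libraries without a label, which were not used. Symbols turned into dates (26), failed or capped estimates (2 in the table of experiment 2) and genes with differing repeated listings were left out.

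Values were taken as log2(FPKM + 1), so ratios understate changes of low genes, and ratios were formed within 1 table. Tested genes averaged 1 FPKM or more over the 6 wild-type libraries of the spread and the compared libraries. Small RNA and SNAR genes (176) were left out, and keeping them was tried as an alternative. Limma 3.58.1 in R 4.3.3 moderated the variance of the 3 wild-type palmitate ratios, 1 per experiment (2 residual and 10.2 prior degrees of freedom, intensity trend). A lone ratio was given that variance and a difference of 2 ratios the sum of both, and p-values were adjusted by Benjamini-Hochberg over all tested genes. Pairing by experiment comes from the labels. With each gene's mean over experiments removed, palmitate and untreated libraries of 1 experiment correlated across genes at 0.355, 0.680 and 0.688, and libraries of different experiments at -0.585 to 0.145. Removing a mean over only 3 experiments ties these values together, so the contrast between them is partly built in. Counts were not used here, so the depth is unknown, and precision comes from the variation among experiments, which may be technical.

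Members, the 29 gene lists, tests and alternatives were chosen with earlier results of these data known, and no list is independent evidence of its direction. Named genes follow a rule: GPAT4; the 12 highest and 12 lowest ratios among calls that reach 5 FPKM; the 4 largest ratios of each list; a panel of stress and lipid genes; and the 6 highest and lowest of the other comparisons. CRELD2, HSP90B1, HBG2, HBZ and GPAT2 were added for their function. Some genes that the rule names are not reported here. GC content came from a GRCh37 annotation for 96.2% of tested genes. Figures were drawn with matplotlib 3.10.9.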

Additional observations from a re-analysis of the deposited data

How the results depend on the processing

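Counts of calls depended on how the spread was estimated. For the knockout against wild type with palmitate, 239 calls became 2 with no filter, 22 with small RNA genes kept, 31 with the GC trend removed, 1 with no replicate block and 155 to 613 when 1 wild-type experiment was left out of the spread (604 without experiment 1, 613 without experiment 2 and 155 without experiment 3). Against untreated wild type, 50 calls became 2 with no filter, 24 with small RNA genes kept, 1 with no replicate block, and 22 to 132 with 1 experiment left out. Against both fatty acids, 29 calls became 2, 17 and 1 under those settings, 17 with the filter set on the libraries not compared (added after seeing the data), 11 with the GC trend removed, and 11 to 74 with 1 experiment left out. For the difference from the RNF213 knockdown, 2 calls became 10 with a pseudocount of 0.1, 0 with no filter, 5 at a mean of 5 FPKM, 15 with small RNA genes kept, 0 with the GC trend removed, 0 with the filter on the libraries not compared, 0 with no replicate block, and 2 to 97 with 1 experiment left out. The experiment left out for the highest count was experiment 2 in each comparison. Rises were 36.0% of the calls against wild type with palmitate, 72.7% with small RNA genes kept and 100% of the 2 calls with no filter and of the 1 with no replicate block. Against both fatty acids they were 62.1% of calls, and 41.9% with a pseudocount of 0.1, 48.0% at a mean of 5 FPKM, 47.6% with no intensity trend and 35.3% with the filter on the libraries not compared. The cause was not tested.

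Ratios and medians moved less. At a mean of 5 FPKM, 581 of 8149 tested genes were at least 2-fold lower, against 917 of 10944 in the main run. With palmitate-responsive lists from experiment 1 alone, the median knockout ratio was -0.83 for raised and 0.50 for lowered genes, and the correlations were -0.48 (Pearson) and -0.44 (Spearman). List medians with no filter were 0 for fatty acid uptake, 0.33 for fatty acid synthesis, -0.084 for fatty acid oxidation, -1.06 for NF-kappaB, -0.32 for apoptosis and -0.033 for megakaryocyte genes. At a mean of 5 FPKM they were 0.12 for fatty acid oxidation and 0.21 for megakaryocyte genes (-0.074 with the filter on the libraries not compared), and for fatty acid oxidation -0.0046 with centred ratios and -0.057 with the GC trend removed. With 1 library per side and no counts, an uncalled ratio is not shown to be 0.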
